A study of Mus musculus with 2 samples.

Results

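The genes described here encode 6 integrin subunits and 2 chains of laminin-332 that keratinocytes use to hold on to the basement membrane and to crawl over a wound bed. They are Itga2, Itga3, Itga5, Itga6, Itgb4, Itgb6, Lama3 and Lamb3. They were found by symbol among the 27998 genes listed in both count matrices, and each of the 8 had 1 row. Their levels were read in keratinocytes, in subsets of keratinocytes and in the other cells of healing mouse skin.

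The 2 libraries were made from male wild-type C57BL/6J mice of 6 to 8 weeks that carried a circular wound 1.8 cm across on the back. In WT_LW the wound received PBS, and in TLR9agonist_LW it received ODN2395, a CpG oligodeoxynucleotide that activates the DNA sensor TLR9, at 4 μg, on days 0, 3 and 6. The control is PBS in the labels, while one description of the same group gives a control oligodeoxynucleotide, so what the ratios between the libraries compare is not settled. Tissue was a 5 mm punch of the wound centre, cut 2 days after the scab came off, and the cells of several mice were pooled (6 mice per group in one description and 5 in another), with 1 library per group. With no replicate, no test between the groups was possible, and the treatment cannot be told apart from anything else that separated the pooled mice or their preparation.

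Integrins are pairs of an α and a β chain. The α6β4 pair, with collagen XVII, plectin and the dystonin isoform of skin, forms hemidesmosomes, which anchor resting basal keratinocytes to laminin-332. The α3β1 pair also binds laminin-332 and takes part in its assembly and in movement. The α2β1 pair binds collagen, α5β1 binds fibronectin, and αvβ6 binds fibronectin and tenascin and releases active TGF-β. Resting epidermis makes little α5 and β6, and keratinocytes at a wound edge are known to raise both and to lay down new laminin-332, to which Lama3 and Lamb3 each give a chain.

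The deposited barcodes held 99374045 UMIs (unique molecular identifiers, 1 per captured transcript) in WT_LW and 132339022 in TLR9agonist_LW. After filters and removal of predicted doublets, 10395 and 11811 cells remained, with median depths of 5519 and 6080 UMIs. The 2 libraries shared 47 cell barcodes. Cells were sorted into classes by counting marker genes with at least 2 UMIs, and none of the 8 genes was a marker. At least 10 of 20 epidermal markers made a keratinocyte, which gave 413 cells (3.97%) of WT_LW and 1117 cells (9.46%) of TLR9agonist_LW. Keratinocytes below the minimum number of follicle, lipid or cycling markers (3 or 4 by panel) were called basal, transitional or suprabasal by the log2 ratio of suprabasal to basal panel UMIs. The cuts were at -2 and 0, so these are ranges of a score, and 27 and 97 keratinocytes lay within 0.5 of the lower cut. Basal keratinocytes numbered 66 in WT_LW and 146 in TLR9agonist_LW, and suprabasal keratinocytes 169 and 568. Levels are UMIs of a gene per 1000000 UMIs of its class (CPM), with exact Poisson 95% intervals that cover counting error only. Free RNA was present in both libraries: Krt14, a keratin that T cells do not make, stood at 133 CPM in T or NK cells of WT_LW and at 427 in those of TLR9agonist_LW.

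Positions are those of the GENCODE annotation of GRCm38, matched by Ensembl identifier for all 8 genes. Itga2 (ENSMUSG00000015533) spans chr13:114833081-114932100 on the minus strand, Itga3 (ENSMUSG00000001507) chr11:95044474-95076801 on the minus strand, and Itga5 (ENSMUSG00000000555) chr15:103344286-103366763 on the minus strand. Itga6 (ENSMUSG00000027111) spans chr2:71745616-71858416 on the plus strand, Itgb4 (ENSMUSG00000020758) chr11:115974709-116008412 on the plus strand, and Itgb6 (ENSMUSG00000026971) chr2:60598292-60722643 on the minus strand. Lamb3 (ENSMUSG00000026639) spans chr1:193207699-193343878 on the plus strand, and Lama3 (ENSMUSG00000024421) lies on chromosome 18. All 8 are annotated as protein-coding genes, and the counts are per gene, so exons and isoforms were not separated. The annotated span of Lamb3 overlaps 2 genes on its own strand, 4930570N18Rik and Gm37691, and 4 on the other, among them G0s2 and Hsd11b1. From counts per gene, its UMIs cannot be told apart from those of the same-strand neighbours, and their part was not tested. The spans of Itga5, Itga6, Itgb4 and Lama3 each overlap non-coding genes or pseudogenes. For Itga5, Itga6 and Lama3 some of these lie on the same strand, and their part in the counts was not tested either.

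The first question was which cells of the healing wound made these transcripts. Ratios between cell classes or libraries are given as log2 ratios relative to the median gene, and a gene was counted when its ratio passed 2-fold. Against all other gated cells, 6 of the 8 genes were at least 2-fold higher in keratinocytes of WT_LW, where 16.4% of 14114 genes with at least 50 UMIs were. The figure was 7 of 8 in TLR9agonist_LW, where 20.1% of 14129 genes were. Itga5 was the 1 gene at least 2-fold lower in keratinocytes of each library, where 28.2% and 30.9% of all genes were. The median over the 8 genes was 2.20 in WT_LW and 2.58 in TLR9agonist_LW. The median gene itself lay at -0.53 and -0.82, so the same medians on the plain scale were 1.68 and 1.76. All of these genes are named for work in keratinocytes, so a count above the background describes how they were chosen as much as the tissue.

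**Figure D1:**
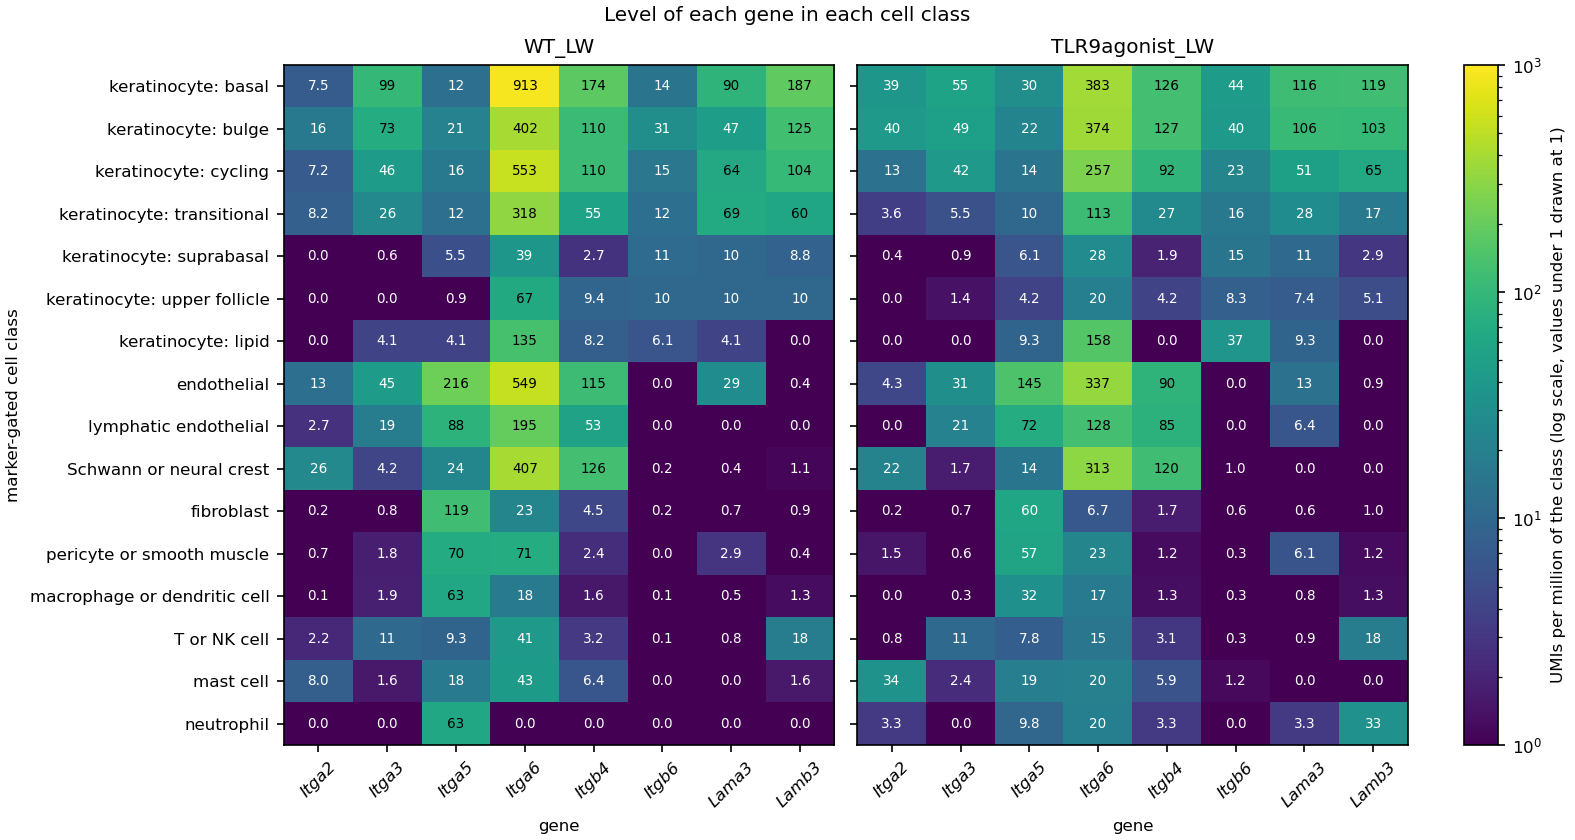
Level of each of the 8 genes (columns) in each marker-gated cell class (rows) of WT_LW and TLR9agonist_LW, as CPM of the class on a log colour scale, with the value printed in each cell. Itgb6 stayed at or below 1.19 in the gated classes other than keratinocytes, Itga6 and Itgb4 were also high in endothelial and Schwann or neural crest cells, and among the classes other than keratinocytes Itga3 and Itga5 were highest in endothelial cells.

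Itgb6, the β chain that pairs with αv, was the gene most restricted to keratinocytes by its ratio. It held 107 UMIs in the 413 keratinocytes of WT_LW and 6 UMIs in the 7400 other gated cells, which is 12.9 against 0.0960 CPM. In TLR9agonist_LW it held 498 UMIs in 1117 keratinocytes and 29 in 7844 other cells, or 19.6 against 0.437. The relative log2 ratios were 7.59 (6.42 to 9.07) and 6.31 (5.76 to 6.90). Keratinocytes held 77.0% and 73.9% of all Itgb6 UMIs of the libraries, and cells with markers of 2 lineages, which were set aside, held a further 14.4% and 20.9%.

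Lama3 and Lamb3, the α3 and β3 chains of laminin-332, also had more of their UMIs in keratinocytes than in all other gated cells together. Lama3 stood at 35.5 CPM in keratinocytes against 2.80 in other gated cells of WT_LW, and at 32.4 against 1.66 in TLR9agonist_LW. Endothelial cells were the class with the most Lama3 UMIs outside, with 130 UMIs in 560 cells of WT_LW (29.1 CPM, 24.3 to 34.6) and 46 UMIs in 344 cells of TLR9agonist_LW (13.3, 9.76 to 17.8). The matching levels of Lamb3 in endothelial cells were 0.448 and 0.869, from 2 and 3 UMIs, so endothelial cells held Lama3 with hardly any Lamb3.

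Outside keratinocytes most Lamb3 UMIs of gated cells were in T and NK cells. It stood at 17.95 CPM (16.0 to 20.1) in T or NK cells of WT_LW and at 18.1 (16.0 to 20.3) in those of TLR9agonist_LW, from 300 and 283 UMIs. To compare detection at one depth, cells were thinned to 5000 UMIs and shallower cells were left out, 1863 of 2998 and 1636 of 2885 among T or NK cells and 105 and 205 among fibroblasts. Of the cells kept, 6.87% and 6.73% of T or NK cells held a Lamb3 UMI, against 0.447% and 0.406% of fibroblasts (8.94% and 8.87% of T or NK cells, and 1.55% and 1.24% of fibroblasts, before thinning). Krt14 in the same cells was 133 and 427 CPM, and the part of free RNA and of genes overlapping Lamb3 was not tested. Neutrophils, gated in part by G0s2, held 0 Lamb3 UMIs in 22 cells of WT_LW (upper 95% bound 58.3 CPM) and 10 UMIs in 117 cells of TLR9agonist_LW, or 32.5 CPM (15.6 to 59.8). Itga3 outside keratinocytes was highest in endothelial cells, at 44.8 (38.8 to 51.5) and 31.0 CPM (25.4 to 37.5), and stood at 10.7 and 10.54 in T or NK cells and 0.810 and 0.749 in fibroblasts.

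Itga6 and Itgb4, the hemidesmosome pair, were shared with endothelium and nerve. Itga6 stood at 549 CPM (527 to 571) in endothelial cells of WT_LW and at 337 (318 to 357) in those of TLR9agonist_LW. In Schwann or neural crest cells it stood at 407 (390 to 424) and 313 (293 to 334). Itgb4 followed, with 115 and 90.4 in endothelial cells and 126 and 120 in Schwann or neural crest cells. In both cell types the pair is known to bind laminins of the vessel wall and the nerve sheath. Fibroblasts held little of either, with Itgb4 at 4.49 and 1.74.

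Itga5, the α chain of the fibronectin receptor, was mainly found outside keratinocytes. Its levels were 216 and 145 CPM in endothelial cells, 119 and 59.8 in fibroblasts, 70.3 and 56.7 in pericytes or smooth muscle and 63.1 and 32.3 in macrophages or dendritic cells, with WT_LW given first. Keratinocytes held 8.66 and 10.6, and so 1.39% and 6.92% of the Itga5 UMIs of their libraries. Itga2, the α chain of the collagen receptor, was found outside the epidermis in Schwann or neural crest cells at 25.9 (21.8 to 30.5) and 22.2 (17.2 to 28.3), and in endothelial cells at 12.6 and 4.35. Mast cells held 5 Itga2 UMIs in 187 cells of WT_LW and 29 in 402 cells of TLR9agonist_LW, which is 8.03 (2.61 to 18.7) and 34.4 (23.0 to 49.4) CPM. The 34 mast cell UMIs lie under the filter of 50, so no ratio is counted there.

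The second question was where within the epidermis the genes were used. All 8 genes had a higher level in basal than in suprabasal keratinocytes of both libraries. In TLR9agonist_LW all 8 were at least 2-fold higher, where 9.35% of 8628 genes were, and the median over the 8 was 4.23. In WT_LW 6 of the 8 passed the filter of 50 UMIs and 5 of these were at least 2-fold higher, where 8.35% of 6566 genes were, and the median over all 8 was 3.56 with Itga2 at its lower bound. None was at least 2-fold lower in either library, where 9.34% and 10.1% of all genes were. The gates used none of the 8 genes, but basal attachment to the basement membrane is what these genes are known for.

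The collagen and laminin receptors Itga2, Itga3 and Itgb4 were scarce in suprabasal cells. Itga3 stood at 99.1 in basal and 0.607 CPM in suprabasal cells of WT_LW (119 and 2 UMIs) and at 55.1 and 0.931 in TLR9agonist_LW (150 and 12 UMIs). Itgb4 stood at 174 and 2.73 in WT_LW and at 126 and 1.94 in TLR9agonist_LW. Itga2 had 9 UMIs in basal cells and 0 in suprabasal cells of WT_LW, and 105 and 5 UMIs in TLR9agonist_LW. In WT_LW its relative ratio was 7.03-fold when the count of 0 is set to 3, which is no strict bound with so few UMIs. Over the settings run this log2 ratio ranged from 2.61 to 3.72. Lamb3 stood at 187 and 8.80 CPM in WT_LW and at 119 and 2.95 in TLR9agonist_LW. Transitional cells lay between or near the basal level: in WT_LW they held Itga2 at 8.22 CPM (3.02 to 17.9), Itga3 at 26.0 (15.7 to 40.7) and Itgb4 at 54.8 (39.2 to 74.6), and in TLR9agonist_LW at 3.56, 5.48 and 26.6.

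Itgb6, Itga5, Lama3, Itga6 and Lamb3 each had at least 18 UMIs in suprabasal cells of both libraries. Suprabasal Itgb6 stood at 11.2 CPM (7.91 to 15.5) in WT_LW, close to the basal 14.2 (8.25 to 22.7), and the relative log2 ratio of 0.11 had an interval of -0.81 to 0.97. In TLR9agonist_LW suprabasal Itgb6 stood at 14.6 (12.6 to 16.8) and basal Itgb6 at 44.4 (36.9 to 53.1), a ratio of 1.28 (0.94 to 1.62). It no longer passed 2-fold with equal weight per cell (0.89) or with a basal cut of -3 (0.81). Lama3 kept 10.0 and 10.6 CPM in suprabasal cells, and Itga6 kept 38.8 and 27.8. Itga5 had 5.46 and 6.13 there, a level under that of T or NK cells (9.28 and 7.79).

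**Figure D2:**
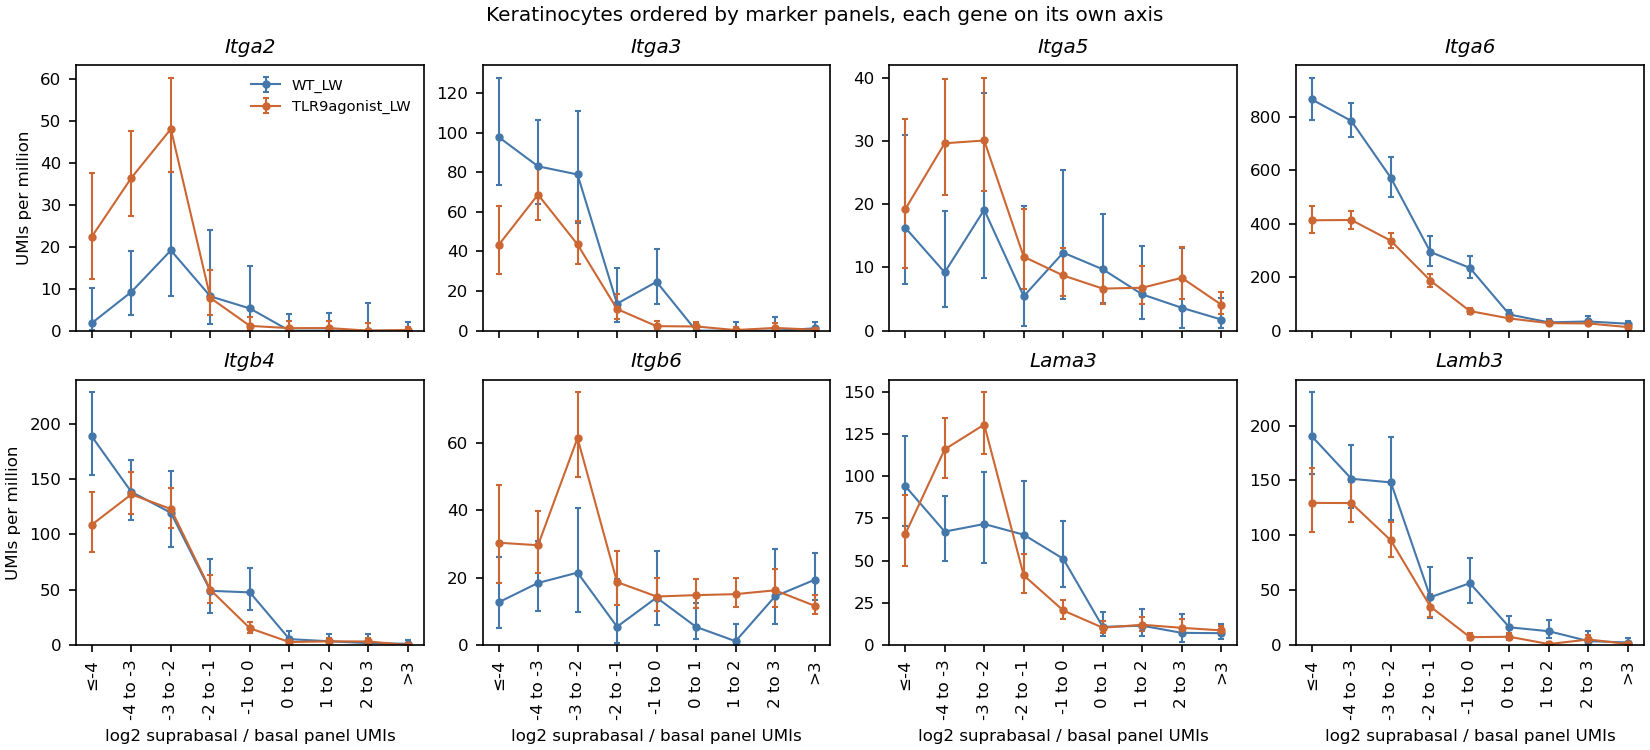
CPM of each gene (vertical axis, 1 panel per gene with its own scale starting at 0) in keratinocytes of both libraries, binned by the log2 ratio of suprabasal to basal panel UMIs (horizontal axis), with exact Poisson 95% intervals as bars. Cycling and lipid-gated cells are left out and follicle-gated cells are included. In TLR9agonist_LW Itga2, Itgb6 and Lama3 peaked between -3 and -2, while Itga6 of WT_LW was highest at or below -4.

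Within the basal range the 8 genes did not share one profile. In TLR9agonist_LW, the 32 cells at or below -4 had Itga2 at 22.4 CPM (12.2 to 37.6) and the 84 cells between -3 and -2 had it at 48.0 (37.8 to 60.2). Itgb6 went from 30.4 (18.3 to 47.5) to 61.5 (49.8 to 75.1) and Lama3 from 65.6 (47.1 to 89.0) to 131 (113 to 150) over the same bins, and in each of these 3 genes the intervals did not overlap. In WT_LW the same bins held Lama3 at 94.2 (70.4 to 124) and 71.7 (48.4 to 102), Itgb6 at 12.7 (5.10 to 26.1) and 21.5 (9.84 to 40.8) and Itga2 at 1.81 (0.0459 to 10.1) and 19.1 (8.26 to 37.7), with intervals that overlapped in each gene, and for Lama3 in the other direction. In WT_LW, Itga6 was highest in the 32 cells at or below -4, at 864 (789 to 946). The bins of WT_LW held 21 to 93 cells, so its curves are coarse. Itga2 had 1 and 8 UMIs in the 2 bins compared there, so overlap does not mean a smaller difference than in TLR9agonist_LW. The share of all genes that differed between these bins is not given.

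The third question was how the TLR9agonist_LW library differed from WT_LW. In basal keratinocytes Itga2, Itga5 and Itgb6 were at least 2-fold higher in TLR9agonist_LW, which is 3 of the 8 genes, where 6.28% of 6132 genes were. None of the 8 was at least 2-fold lower, where 4.47% were. Itga6 came closest, at a relative log2 ratio of -0.997 that just missed 2-fold, and it passed 2-fold under 3 of the 10 alternative settings. The median over the 8 genes was 0.20 relative to the median gene and -0.05 on the plain scale. Single genes ran from -0.997 (Itga6) to 2.62 (Itga2) relative to the median gene, so the genes did not move as a block. The median gene of basal keratinocytes lay at -0.25.

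**Figure D3:**
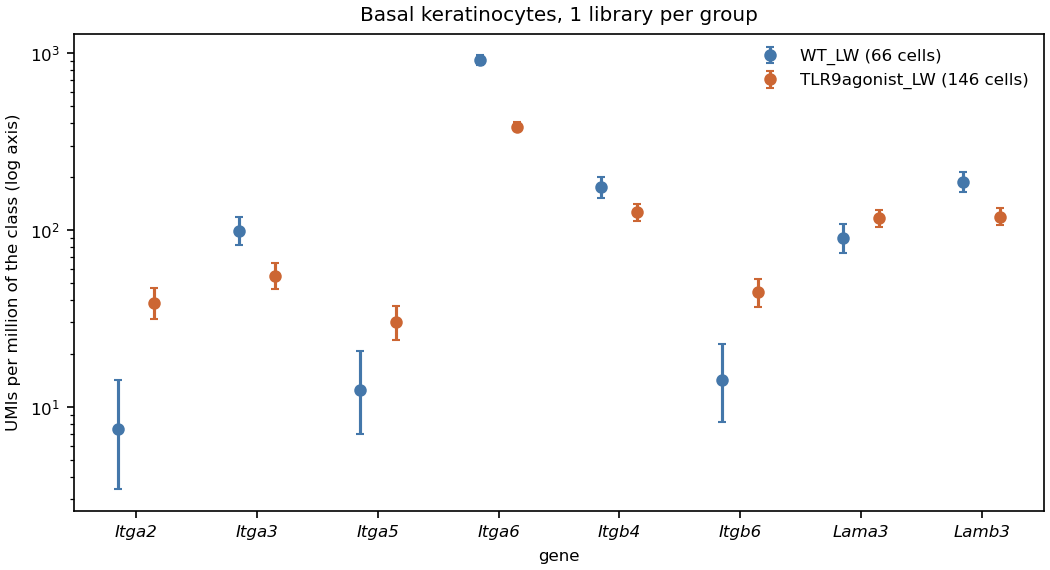
CPM of each gene (log vertical axis) in the 66 basal keratinocytes of WT_LW and the 146 of TLR9agonist_LW, with points for the 2 libraries and bars for exact Poisson 95% intervals. On this plain scale Itga2, Itga5 and Itgb6 were higher in TLR9agonist_LW and Itga3, Itga6, Itgb4 and Lamb3 were lower, each with intervals that do not overlap. The median gene lay at a log2 ratio of -0.25 on the same scale, and Itgb4 was at -0.21 relative to it. The share of all genes with intervals that do not overlap is not given.

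Itga2 had the largest difference of the 8 genes. It held 9 UMIs in 8 of 66 basal cells of WT_LW and 105 UMIs in 52 of 146 basal cells of TLR9agonist_LW, which is 7.497 (3.43 to 14.2) against 38.6 (31.5 to 46.7) CPM. The relative log2 ratio was 2.62 (1.64 to 3.79), or 6.14-fold. Among the 63 and 141 basal cells deep enough to be thinned to 5000 UMIs, 6.35% (1.76 to 15.5) held an Itga2 UMI in WT_LW and 18.4% (12.4 to 25.8) in TLR9agonist_LW (12.1% and 35.6% before thinning). The thinned shares were 0.969% and 0.400% in T or NK cells. In fibroblasts they were 0 of 671 cells in WT_LW (upper interval bound 0.548%) and 0.102% of 1969 cells in TLR9agonist_LW. Before thinning, 0.258% and 0.184% of fibroblasts held an Itga2 UMI. The median depths were 16859.5 and 18605.5 UMIs in basal keratinocytes, 4491.5 and 4794 in T or NK cells and 17098.5 and 12885.5 in fibroblasts.

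Itgb6 came next. It held 17 UMIs in 9 basal cells of WT_LW and 121 UMIs in 65 basal cells of TLR9agonist_LW, or 14.2 (8.25 to 22.7) against 44.4 (36.9 to 53.1) CPM. The relative log2 ratio was 1.90 (1.17 to 2.73). The thinned share of cells with a UMI was 3.17% (0.387 to 11.002) in WT_LW and 19.1% (13.0 to 26.6) in TLR9agonist_LW, with T or NK cells at 0.0881% and 0.0801%. Itgav, which encodes the partner chain αv, stood at 67.5 and 94.0 CPM in the same cells, a relative log2 ratio of 0.73 (0.37 to 1.11).

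Itga5 followed with 15 UMIs in 11 basal cells of WT_LW, of which 26.7% came from 1 cell, and 82 UMIs in 47 basal cells of TLR9agonist_LW. The levels were 12.5 (6.99 to 20.6) and 30.1 (24.0 to 37.4) CPM, and the relative log2 ratio was 1.52 (0.72 to 2.42). Its thinned shares were 3.17% (0.387 to 11.002) and 10.6% (6.08 to 16.9), against 3.88% and 3.52% in T or NK cells, so in WT_LW the basal share did not exceed that of T or NK cells. Itgb1, the β chain that pairs with α2, α3, α5 and α6, stood at 327 (296 to 361) and 409 (386 to 434), a relative log2 ratio of 0.58 (0.41 to 0.75).

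Because these 3 genes were higher together, the DNA around their starts is shown. RefSeq promoter windows of 300 bases (GRCm38.p6) were on hand for 5 of the 8 genes. The windows run from 250 bases before a RefSeq start, which can differ from the span given above, to 50 bases after it. They are printed 5′ to 3′ on the gene's strand, in lower case, with matches to 3 motifs in capitals. The motifs, searched on both strands, were the AP-1 site TGANTCA, the TEAD site GGAATG and the GC box GGGCGG, and no matches overlapped. The windows are chr13:114932051-114932350 (minus strand) for Itga2, chr15:103366742-103367041 (minus strand) for Itga5 and chr2:60722554-60722853 (minus strand) for Itgb6.
Itga2: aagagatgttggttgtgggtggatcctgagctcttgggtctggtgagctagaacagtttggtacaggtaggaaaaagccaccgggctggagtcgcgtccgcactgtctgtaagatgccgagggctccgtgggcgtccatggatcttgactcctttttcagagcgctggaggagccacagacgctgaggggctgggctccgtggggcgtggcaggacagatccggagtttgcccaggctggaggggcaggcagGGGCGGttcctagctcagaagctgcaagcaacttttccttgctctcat
Itga5: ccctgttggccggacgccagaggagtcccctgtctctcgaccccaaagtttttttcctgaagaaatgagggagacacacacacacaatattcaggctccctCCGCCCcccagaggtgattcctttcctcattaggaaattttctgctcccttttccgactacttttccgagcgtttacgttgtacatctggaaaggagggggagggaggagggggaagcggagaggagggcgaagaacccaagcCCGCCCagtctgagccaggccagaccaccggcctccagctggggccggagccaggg
Itgb6: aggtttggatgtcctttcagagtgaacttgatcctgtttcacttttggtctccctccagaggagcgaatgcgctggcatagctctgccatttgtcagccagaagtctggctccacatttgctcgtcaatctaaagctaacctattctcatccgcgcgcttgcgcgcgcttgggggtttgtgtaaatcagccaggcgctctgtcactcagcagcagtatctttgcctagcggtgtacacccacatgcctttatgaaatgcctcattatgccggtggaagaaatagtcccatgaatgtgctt

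The Itga2 window held 1 GC box, which starts at base 253 and so lies just after the gene start, and the Itga5 window held 2 GC boxes on the opposite strand. The Itgb6 window printed here held none of the motifs, nor did a second Itgb6 window at an inner start (chr2:60673644-60673943). GC boxes were found in 35.7%, AP-1 sites in 7.81% and TEAD sites in 14.7% of 32851 windows of the same length. Of the genes that were not higher, the outer Itga3 window (chr11:95076665-95076964) held 3 GC boxes and the inner one (chr11:95069149-95069448) held 1 GC box and 1 AP-1 site. Both Lamb3 windows lie inside the annotated span of the gene and not at its outer start. Of these, the window at chr1:193301993-193302292 held 1 TEAD site. Within these 300 bases, then, none of the motifs searched was found in all 3 of the higher genes.

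The laminin receptors and the β3 chain went the other way. Itga6 held 1096 UMIs in 66 basal cells of WT_LW and 1044 in 146 cells of TLR9agonist_LW, or 913 (860 to 969) against 383 (360.5 to 407) CPM. Its thinned share of cells was 85.7% (74.6 to 93.3) against 71.6% (63.4 to 78.9). Itga3 went from 99.1 (82.1 to 119) to 55.1 (46.6 to 64.6), a relative log2 ratio of -0.59 (-0.95 to -0.23), and its thinned share from 38.1% to 22.7%. Lamb3 went from 187 (164 to 214) to 119 (106 to 133), a relative log2 ratio of -0.40 (-0.65 to -0.15), and 14.2% of its UMIs in WT_LW came from 1 cell.

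Itgb4 differed least from the median gene, and Lama3 was the laminin chain that was higher. Itgb4 stood at 174 (151 to 199) and 126 (113 to 140) CPM, and its relative log2 ratio of -0.21 had an interval of -0.46 to 0.04. Lama3 stood at 89.97 (73.8 to 109) and 116 (104 to 130), with a relative log2 ratio of 0.62 (0.30 to 0.95). Lama3 and Lamb3 thus had ratios of 0.62 and -0.40, on opposite sides of the median gene.

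Other transcripts also differed between the basal cells of the 2 libraries. Krt79, a marker of the upper hair follicle, stood at 263 CPM in WT_LW and 12.9 in TLR9agonist_LW, with a UMI in 28 of 66 and 17 of 146 basal cells, and 1 cell gave 40.5% of its UMIs in WT_LW and 45.7% in TLR9agonist_LW. The 7 upper follicle markers together, Krt79 among them, had sums of 938 and 1642 CPM. Krt17, which is also on the wound-edge list below and was higher in TLR9agonist_LW, is among these 7. The sums without Krt17 are not given, so the higher sum does not show that the other follicle markers were higher. Without the cells that held a Krt79 UMI, Itga2, Itga5 and Itgb6 had relative log2 ratios of 2.62, 1.84 and 1.62 in the remaining 38 and 129 cells. The 8 neutrophil markers summed to 201 and 2525 CPM, and 7 of them had UMIs in WT_LW and 6 in TLR9agonist_LW. Retnlg was at 0 in both libraries and Csf3r at 0 in TLR9agonist_LW. S100a8, a gene that wounded keratinocytes also express, gave 68.3 and 1103, and other markers of the panel gave the rest. The heat shock genes Hspa1a (169 and 1068) and Hspa1b (297 and 1173) were higher in TLR9agonist_LW, while Fos (1270 and 510) and Fosb (583 and 225) were lower. The part of dissociation stress and of free RNA in the results was not tested.

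Over all gated keratinocytes the ratios lay closer to the median gene for Itga2, Itga5 and Itgb6. Itga2 and Itgb6 were at least 2-fold higher in TLR9agonist_LW, which is 2 of the 8 genes, where 6.64% of 10812 genes were. None of the 8 was at least 2-fold lower, where 5.84% were. Itga2 stood at 3.61 and 7.90 CPM (relative log2 ratio 1.66, 1.10 to 2.26) and Itgb6 at 12.9 and 19.6 (1.13, 0.83 to 1.45). Without centring, Itgb6 was at 0.60 and no longer passed 2-fold, while Itga2 did at 1.13. Itga5 had a ratio of 0.82 (0.44 to 1.22), Itga6 of -0.76 (-0.83 to -0.68), Lamb3 of -0.49 (-0.66 to -0.32) and Itga3 of -0.42 (-0.66 to -0.17). Suprabasal cells made up 40.9% of the keratinocytes of WT_LW and 50.9% of those of TLR9agonist_LW, and the part of this mixture in these values was not tested. The median gene lay at -0.53, the median over the 8 genes was 0.14 relative to it and -0.39 on the plain scale, and Lama3 changed from 0.39 to -0.13 between these scales.

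**Figure D4:**
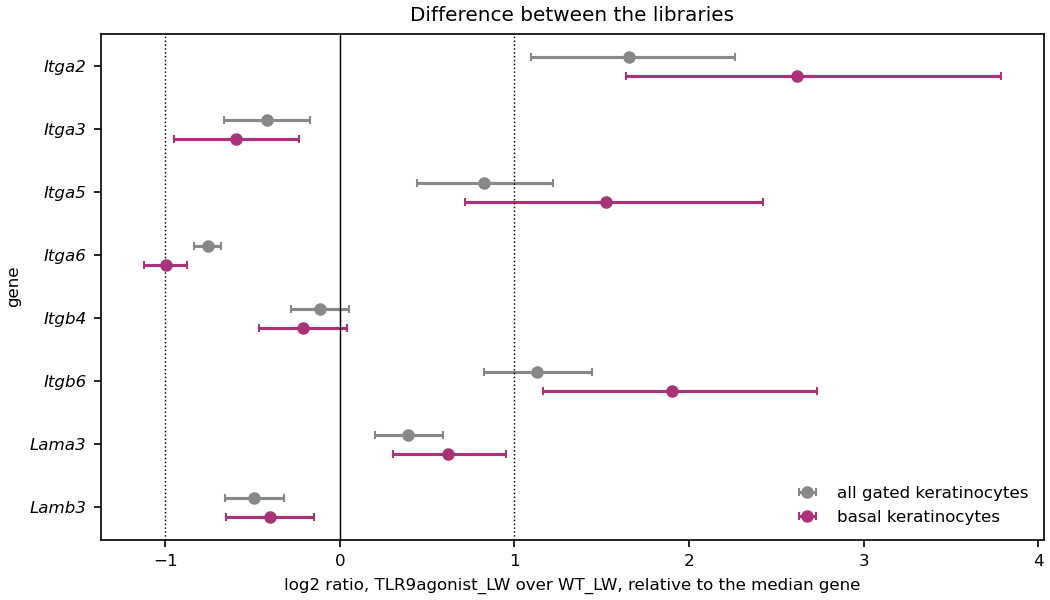
Log2 ratio of TLR9agonist_LW over WT_LW relative to the median gene (horizontal axis) for each gene in all gated keratinocytes and in basal keratinocytes, with 95% intervals for counting error and dotted lines at 2-fold. Itga2 and Itgb6 lie to the right of the dotted line in both sets of cells, and Itga5 does so in basal cells.

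The remaining keratinocyte subsets gave the following values. In the bulge marker-gated cells (25 and 45 cells) Itga6 had a ratio of -0.01 (-0.27 to 0.27) and Lama3 a ratio of 1.27 (0.57 to 2.05), with levels of 47.0 and 106 CPM. In TLR9agonist_LW 28.0% of these Lama3 UMIs came from 1 cell. The bulge marker Lhx2 stood at 72.9 CPM in this gate in WT_LW and at 6.38 in TLR9agonist_LW, so the gate is named for its rule and not for the bulge. In transitional keratinocytes (37 and 159 cells) Lamb3 was at 60.3 and 16.7 (ratio -1.54, -2.12 to -0.94), Itga6 at 318 and 113 (-1.17, -1.41 to -0.93) and Lama3 at 68.5 and 28.5 (-0.95, -1.45 to -0.43). So Lama3 was higher in the basal range and lower in the transitional range of TLR9agonist_LW. In cycling keratinocytes (39 and 103 cells) Itgb6 had a ratio of 0.90 (0.12 to 1.76) and Itga6 a ratio of -0.80 (-0.96 to -0.65).

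The lower Itga6 was not limited to keratinocytes. Of the 16 classes and subsets, 14 had enough Itga6 UMIs, and in 9 of these the interval of the relative ratio lay below 0 and in 0 it lay above. Fibroblasts had 23.2 and 6.70 CPM (ratio -1.52, -1.78 to -1.26), T or NK cells 41.1 and 15.2 (-1.16, -1.38 to -0.95) and pericytes or smooth muscle 71.2 and 23.3 (-1.19, -1.57 to -0.83). Itgb6 passed the filter in 5 classes, all of keratinocytes, and its ratio was above 0 in each, from 0.50 to 1.90, with 3 of the 5 intervals above 0. Itga5 was higher in TLR9agonist_LW in basal keratinocytes, but in fibroblasts its ratio was -0.72 (-0.82 to -0.62) and in macrophages or dendritic cells -0.72 (-0.91 to -0.54).

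The genes that work with the integrins were read from 8 lists, of which Itgb1 is on 2. As a background for each list, 6.28% of 6132 genes were at least 2-fold higher in basal keratinocytes of TLR9agonist_LW and 4.47% at least 2-fold lower. Of the 18 other integrin subunits 3 had enough UMIs in basal keratinocytes, and 0 passed 2-fold: Itgav at 0.73, Itgb1 at 0.58 and Itgb5 at -0.90. Of the 8 hemidesmosome partners 0 were at least 2-fold higher and 1 was at least 2-fold lower, with a median of -0.32 over the 8. Dst, which encodes the plakin that ties hemidesmosomes to keratin, was at 717 and 189 CPM (ratio -1.67, -1.83 to -1.51). In WT_LW 22.5% of the Dst UMIs came from 1 cell. Plec (plectin) was at 360 and 155 (-0.96, -1.16 to -0.77) and Col17a1 (collagen XVII) at 1188 and 734 (-0.44, -0.54 to -0.34). All 8 partners had a higher level in basal than in suprabasal cells of both libraries, 7 of them at least 2-fold. In that comparison 8.35% of 6566 genes of WT_LW and 9.35% of 8628 genes of TLR9agonist_LW were at least 2-fold higher. Krt5 and Krt14 among the partners were basal gate markers.

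Of the 14 other basement membrane genes 7 had enough UMIs in basal keratinocytes, and 0 of these 7 had a ratio above 0. At least 2-fold lower were 2 of them, where 4.47% of all genes were. Fras1 was at 30.8 and 5.14 CPM (ratio -2.33, -3.33 to -1.41) and Frem2 at 32.5 and 12.5 (-1.12, -1.83 to -0.42). Both encode proteins of the Fraser complex, which joins epidermis to dermis. In TLR9agonist_LW 28.6% of the Fras1 UMIs were in the cell with the most. Of the 10 ligands 6 had enough UMIs and 0 passed 2-fold, with tenascin C (Tnc) at 29.99 and 47.4 (0.91, 0.37 to 1.49) and fibronectin (Fn1) at 26.7 and 23.5 (0.07, -0.56 to 0.73). The collagens in this list (Col1a1 at 240 and 346) are products of fibroblasts, and all 10 fibroblast markers had UMIs in basal keratinocytes, summing to 905 and 1234 CPM.

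The matrix proteases and their regulators had the highest median of the 8 lists in basal keratinocytes. Of 12 genes 9 had enough UMIs, 6 were at least 2-fold higher and 0 at least 2-fold lower, where 6.28% and 4.47% of all genes were. The median was 1.66. Mmp13 (collagenase 3) was at 13.3 CPM in 8 cells of WT_LW and at 458 in 65 cells of TLR9agonist_LW, a ratio of 5.36 (4.65 to 6.17), and 37.5% of its 16 UMIs in WT_LW came from 1 cell. Plaur, the urokinase receptor, was at 16.7 and 95.5 (2.77, 2.12 to 3.51) and Plau, urokinase itself, at 14.2 and 59.9 (2.33, 1.61 to 3.15). Mmp3 (stromelysin 1) was at 30.8 and 85.6 (1.73, 1.22 to 2.27) and Timp3, an inhibitor of metalloproteinases, at 35.8 and 81.5 (1.44, 0.96 to 1.95). In WT_LW 29.7% of the Mmp3 UMIs came from 1 cell. Mmp9 was also counted, but 95.2% of its 21 UMIs in WT_LW came from 1 cell, and it is a neutrophil panel gene.

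The wound-edge list also leaned to TLR9agonist_LW in basal keratinocytes. All 12 genes had enough UMIs, 6 were at least 2-fold higher and 0 at least 2-fold lower, where 6.28% and 4.47% of all genes were. The median was 0.88. Pthlh (3.04, 2.02 to 4.28, from 8 UMIs in WT_LW, 62.5% of them in 1 cell), Krt6b (2.31, 1.94 to 2.70), Krt17 (1.81, 1.69 to 1.93) and the HGF receptor gene Met (1.36, 0.94 to 1.81) had the largest ratios. For Krt6b, 22.3% of the UMIs in TLR9agonist_LW came from 1 cell, and for Met, 29.6% of those in WT_LW did. Krt6a, the partner keratin of Krt16, stood at 1802 and 1541 CPM, a ratio of 0.03 (-0.05 to 0.10), and Snai2 was at 63.3 and 27.2 (-0.97, -1.45 to -0.48). Over all gated keratinocytes 5 of the 12 were at least 2-fold higher and 1, Snai2, at least 2-fold lower, where 6.64% and 5.84% of all genes were. Of the integrin adaptors, 0 of the 11 that had enough UMIs passed 2-fold, and their median was 0.16. Among so few genes, 0 is near the shares of 6.28% and 4.47% over all genes.

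Over all gated keratinocytes the lists gave more genes with enough UMIs. As a background for each list, 6.64% of 10812 genes were at least 2-fold higher in TLR9agonist_LW and 5.84% at least 2-fold lower. Of the 18 other integrin subunits 11 had enough, 2 were at least 2-fold higher in TLR9agonist_LW and 3 at least 2-fold lower. Itgav, the αv partner of Itgb6, was at 44.7 and 70.5 CPM (ratio 1.18, 1.02 to 1.35), and Itga11, a collagen receptor chain of fibroblasts, was at 0.601 and 2.48 (2.57, 1.27 to 4.24). Itgb8, which also pairs with αv, was at 27.7 and 8.02 (-1.26, -1.54 to -0.98), and the leukocyte chains Itgb2 (-1.43) and Itgal (-1.24) were the others lower. In the same keratinocytes the macrophage or dendritic cell markers summed to 859 and 479 CPM and the T or NK cell markers to 61.5 and 42.9. Their part in the lower leukocyte chains was not tested. Of the 13 basement membrane genes with enough UMIs 7 were at least 2-fold lower and 0 were at least 2-fold higher, led by Fras1 (-2.23), Lama4 (-1.55), Col4a1 (-1.32) and Lamb1 (-1.29). In the same keratinocytes the 10 endothelial markers summed to 30.7 CPM in WT_LW and 19.6 in TLR9agonist_LW and the 10 pericyte or smooth muscle markers to 81.2 and 50.2, and their part in the lower basement membrane values was not tested. Of the 12 protease genes 5 were at least 2-fold higher and 0 lower, with Mmp10 (2.01), Plau (1.61), Mmp13 (1.56) and Plaur (1.45) highest. Among the ligands Col1a2 (1.02) was higher and Tgfb3 (-1.05) lower, and 0 of the 13 integrin adaptors passed 2-fold. Of the 10 dissociation stress genes 3 were at least 2-fold higher, Hspa1a (2.26), Hspa1b (2.02) and Dusp1 (1.30), and their part in the other differences was not tested.

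**Figure D5:**
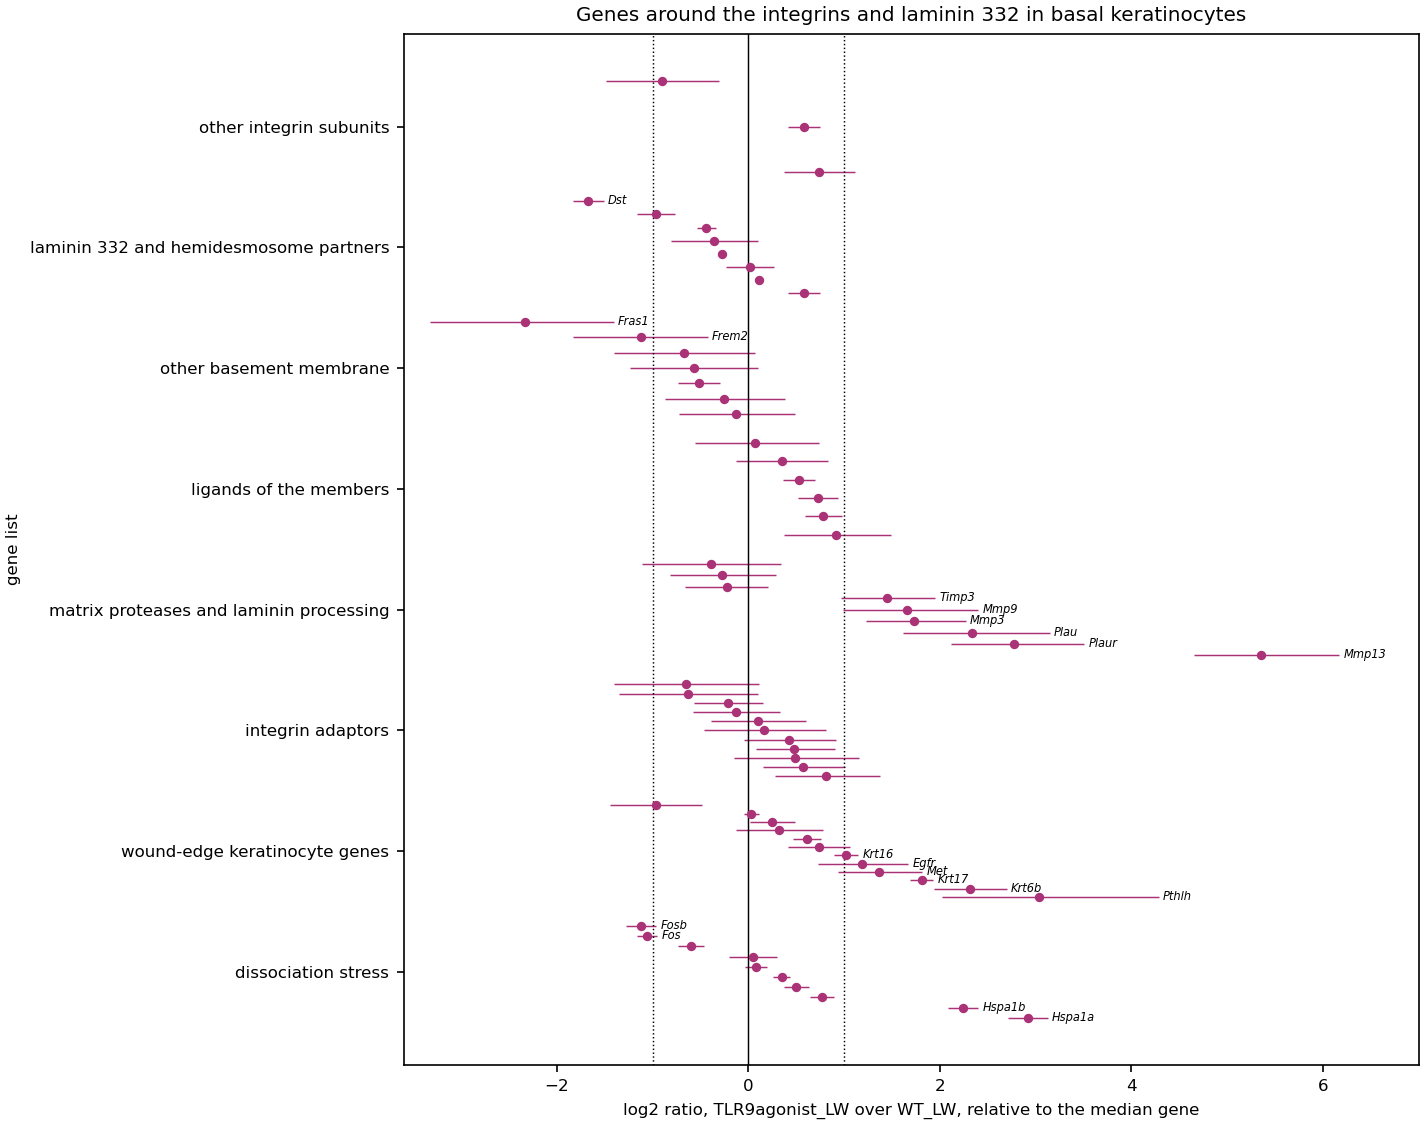
Log2 ratio of TLR9agonist_LW over WT_LW relative to the median gene (horizontal axis) in basal keratinocytes for the genes of 8 lists (rows) with at least 50 UMIs, with 95% intervals for counting error, dotted lines at 2-fold and names for the genes past them. The protease list reaches 5.36 with Mmp13, the integrin adaptors lie between the dotted lines, and the dissociation stress genes spread to both sides.

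In single basal cells, genes of a shared complex were counted together. After thinning to 5000 UMIs, 28 of 63 cells of WT_LW held both Itga6 and Itgb4, against 26.6 from the product of the shares, and 45 of 141 cells of TLR9agonist_LW did, against 40.8. Lama3 and Lamb3 were found together in 12 cells of WT_LW, against 8.63, and in 26 cells of TLR9agonist_LW, against 20.4. Itga2 and Itgb6, which do not pair with each other, were together in 10 cells of TLR9agonist_LW, against 4.98, and were too scarce in WT_LW to be seen together (0 cells, against 0.127). These counts are a description, since cells of 1 library are not replicates.

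Over 30 profiles (15 classes and subsets in each of the 2 libraries), the genes with the most similar pattern were found by Pearson correlation of log2 levels among 13489 genes. The profiles share libraries and free RNA, so the coefficients are a description with no p. Itga6 and Itgb4 were each other's closest gene, at 0.93, followed by Kat2a (0.90) and Gpatch4 (0.89) for Itga6 and by Ctnnal1 (0.87) and Card10 (0.83) for Itgb4. Itga2 was closest to Itgb4 (0.72), Cadm1 and Moxd1 (0.69 each), and Itga3 to Jag2 (0.87), G3bp1 and Adss (0.83 each). The genes closest to Itga5 were Ccdc88a (0.86), Fmnl3 (0.85) and Myadm (0.84). Itgb6 was closest to Fcgbp, Cdcp1 and Dsg3 (0.97 each), Lama3 to Slc16a9 and Kcnh1 (0.92 each) and Fgfr3 (0.90), and Lamb3 to Col17a1 and Gyltl1b (0.91 each) and Krt5 (0.89). Dsg3 and Krt5 were themselves gate markers.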

How the data were processed

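Single-cell RNA was measured in 2 libraries with 10x Genomics 3′ chemistry of a version the labels do not fix. The deposited matrices hold whole-number UMI counts per gene and cell for the barcodes called as cells, without normalization, and the deposited barcode and gene lists only name their rows and columns. The file headers name Cell Ranger 4.0.0, and the submitters' processing notes also name fastp, Seurat and the build mm9, while the files hold no coordinates, so positions come from GENCODE vM21 (GRCm38).

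Cells were kept from 500 UMIs and 300 detected genes upward if mitochondrial UMIs did not exceed 15%. Scrublet's own threshold called no doublet, so its score served as a ranking and the top 9.16% and 10.6% of cells were removed (1048 and 1395 cells). Cells with markers of 2 lineages (431 and 494) and cells passing no gate (2151 and 2356) were set aside. UMIs were summed per class and library. Intervals are at 95% and cover counting error only: exact Poisson for levels, exact conditional on the summed UMIs for ratios and Clopper-Pearson for shares. A count of 0 was set to 3 counts. Ratios were centred on the median gene with at least 50 UMIs, and past 2-fold was the call. With 1 library per group no p-value was computed. The ratio was tested on simulated Poisson counts drawn from the summed WT_LW cells, with no spread between cells. The changed genes there had at least 50 expected UMIs. The simulation therefore does not bear on genes with few UMIs or on spread between cells or mice.

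The 8 genes, the gene lists and the comparisons were chosen with earlier results of these data known, and the gate thresholds and cuts after seeing the data. The text names all 8 genes, up to 4 genes per list and direction past 2-fold in keratinocytes, and the 3 genes most alike to each. List genes named for basal keratinocytes were chosen after their values were seen. One list gene enters its list's counts but is not reported here. Alternatives were no centring, doublets left in, tighter limits on cells (1500 UMIs, 800 genes and 8% mitochondrial), equal weight per cell, Leiden clusters (2000 variable genes without the 8, 30 components, 20 neighbours, resolution 1), a stricter gate, a filter of 10 UMIs and a fold of 1.5. These were also applied to the comparison in basal keratinocytes, along with adding the bulge-gated cells, leaving out cells with a Krt79 UMI and a cut of -3, all chosen after seeing the data. Cells were handled with scanpy 1.11.5, tables with pandas 2.3.3, intervals with scipy 1.17.1 and numpy 2.4.6, and plots with matplotlib 3.10.9, under Python 3.11.15.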

Additional observations from a re-analysis of the deposited data

Results flagged for a closer look

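In 7 cases a gene stood on opposite sides of the median gene in basal keratinocytes and in another class, with both counting intervals clear of 0. The difference between the classes was not tested, since each group has 1 library. The share of all genes that met the same rule is not given, so the 7 cases are a description only.

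Lama3 was higher in TLR9agonist_LW in basal keratinocytes (0.62) and lower in transitional keratinocytes (-0.95) and in endothelial cells (-0.66). Itga5 was higher in basal keratinocytes (1.52) and lower in fibroblasts (-0.72), in macrophages or dendritic cells (-0.72) and in Schwann or neural crest cells (-0.55). Itga2 was higher in basal keratinocytes (2.62) and lower in endothelial cells (-1.06). Lamb3 was lower in basal keratinocytes (-0.40) and slightly higher in T or NK cells (0.28), where its plain level was equal in the libraries.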

How the results depend on the processing

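Of the 70 alternative values of the summary results 60 kept their size and 10 did not, and none of the called values changed sign. Without centring on the median gene, the median over the 8 genes was -0.39 in keratinocytes, where the centred value was 0.14, and for keratinocytes against other gated cells it was 1.68 in WT_LW and 1.76 in TLR9agonist_LW. With equal weight per cell the last 2 values were 1.95 and 2.23, and basal against suprabasal keratinocytes of TLR9agonist_LW gave 3.71. With Leiden clusters the median between the libraries was 0.33, and keratinocytes of WT_LW against other cells gave 2.05. With a fold of 1.5, 4 genes were counted in keratinocytes, 3 higher and 1 lower in TLR9agonist_LW, and 6 in basal keratinocytes, 4 higher and 2 lower. The share of all genes past 1.5-fold is not given, so these counts cannot be set against a background. Of the 295 values for single genes 39 moved. Without centring Itgb6 in keratinocytes was at 0.60, where the centred value was 1.13, and so was no longer past 2-fold. In basal keratinocytes Itga2 ranged from 1.98 to 2.71, Itgb6 from 1.24 to 2.11 and Itga5 from 1.07 to 1.84, all past 2-fold, while Itga6 ranged from -1.25 to -0.75. The causes were not tested.

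No paired analysis was possible because each group has 1 library and the labels give no replicate numbers. Leaving out a replicate was not run for the same reason. The 66 basal keratinocytes of WT_LW limit every basal comparison, with 9 to 17 UMIs of Itga2, Itga5 and Itgb6.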
